A study of Mus musculus with 32 samples.

Results

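RNA from control mice was compared with RNA from control cells in culture, using 16 of the 32 samples of a study on Pparg and glycerol kinase in brown adipocytes. The mouse side had 8 samples of genotype "Pparg control": 4 kept at room temperature and 4 exposed to cold. The culture side had 8 samples, all at room temperature: 4 were the controls of a Pparg knockdown and 4 the controls of a Gyk knockdown. Gyk is the study's name for the glycerol kinase gene, which current annotation calls Gk. All 16 samples carried the strain label C57Bl/6 and the cell type label preadipocytes, and were hybridised to one-colour Agilent arrays with 1 array per sample. The labels do not give the fat depot, the age or sex of the mice, or the length of the cold exposure. They do not give the control allele, a Cre line, the knockdown reagent or the culture conditions either. Nor is it said that the 4 arrays of a group hold RNA of 4 animals or 4 cultures, so p-values measure only how far these arrays spread, possibly for technical reasons.

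Genes were kept when each mouse group differed in the same direction from each culture group. This gives 4 comparisons per gene, and a gene had to pass limma's test in all 4, each with an adjusted p under 0.05. The values are log2 intensities minus the 75th percentile of each array, so a difference of 1 is a doubling. Of 20659 named genes on the array, 14066 were tested, and 5776 of these (41.1%) were kept. They comprised 2848 genes higher in mice (20.2%) and 2928 lower in mice (20.8%). Counts within gene lists below are to be read against these shares of all genes. "Higher" and "lower" below refer to genes that passed all 4 comparisons unless a different test is named. Since these arrays chose the genes, the sizes of their differences are a description. The knockout and knockdown arrays of the same study, which were not used in the choice, gave a repeat of the comparison on other samples.

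Brown fat burns lipid to make heat. Its adipocytes are dense in mitochondria, and Ucp1 in the inner membrane lets protons return without making ATP. The tissue also holds a rich capillary bed, blood, sympathetic nerve, macrophages and fibroblast-like precursors. Cells taken into culture grow attached to plastic in serum, away from blood flow, nerves and most of these neighbours, and precursor cells usually divide before they are turned into adipocytes with hormones.

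The arrays separated first by mouse and culture. The first principal component over 13916 genes held 71.7% of the variance and the second held 14.9%. Pearson correlations between arrays, across genes, lay between 0.974 and 0.996 within a group and between 0.761 and 0.837 for a mouse with a culture array. Room-temperature with cold mouse arrays correlated at 0.903 to 0.919, and Pparg with Gyk culture controls at 0.963 to 0.976. The 75th percentile of intensity ran from 276.7 to 770.7 between the 16 arrays, and 50.1% to 60.3% of probes were called well above background. Each of the 4 groups lay on its own pair of slides and was scanned on its own day, so group, slide pair and scan day cannot be told apart.

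**Figure D1:**
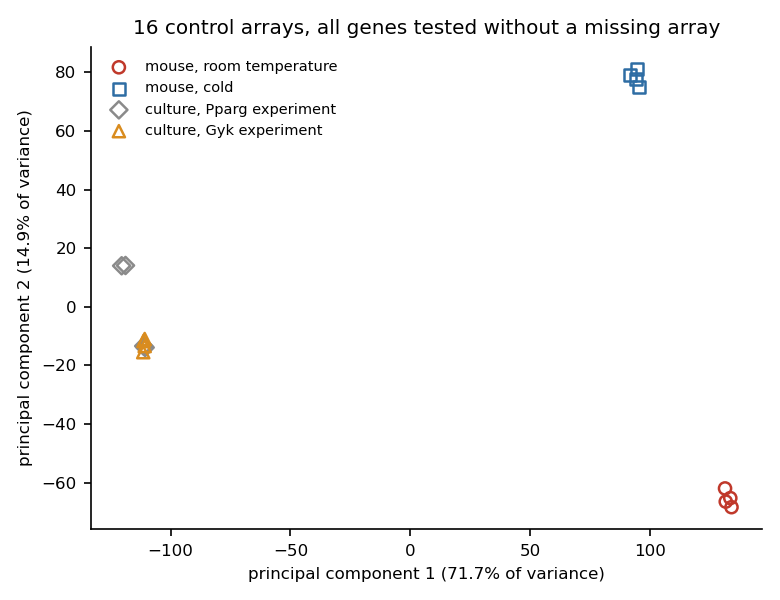
First and second principal components of the 16 control arrays, in arbitrary units, with 1 marker per array and 1 marker shape per group (71.7% and 14.9% of the variance). Mouse arrays lie at positive and culture arrays at negative values of the first component, and the Pparg culture controls fall into 2 pairs, which are their 2 slides.

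Some arrays stood apart within their group. The Pparg culture controls split by slide. Arrays 1 and 2 had second-component values of -13.9 and -13.4, close to the Gyk controls at -15.5 to -11, while arrays 3 and 4 were at 14.1 and 14. Between these slides 707 genes were lower by at least 1 log2 unit on the second and 138 were higher, and 665 of the 707 were lower there among the knockdown arrays too. Of the same 707 genes, 477 (67.5%) were lower in cold than in room-temperature mice, against 24.2% of all genes tested. What these genes share was not tested. Without the first slide's pair the comparison kept 5604 genes, 5391 of them among the 5776, and without the second slide's pair 5393, of which 5217 were shared. In the cold mice, arrays 1 and 2 were high in skeletal muscle genes, described below. Without both of these, 5360 genes were kept and 5124 were shared.

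Mouse and culture differed over much of the transcriptome. Single comparisons called 80.1% of genes (room temperature against Pparg culture), 79.3% (room temperature against Gyk culture), 68.8% (cold against Pparg culture) and 71% (cold against Gyk culture). For 5209 genes (37%) the 8 mouse arrays did not overlap the 8 culture arrays, and they lay above for 18.6% and below for 18.5%. The median absolute difference from the Pparg culture controls was 1.16 log2 units in room-temperature mice and 0.77 in cold mice. The corresponding values against the Gyk culture controls were 1.13 and 0.82. The temperatures differed from each other by a median of 0.70 and the culture groups by 0.40. In all, 1867 genes were at least 2-fold higher in each of the 4 comparisons and 1494 at least 2-fold lower. At 8-fold these counts were 610 and 286. Beyond levels, 391 of the genes higher in mice were well above background on all 8 mouse arrays and on no culture array. The reverse held for 189 of the genes lower in mice.

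The cut fell among small and uneven differences. Just inside it lay Rfxank, whose 4 differences ran from -0.67 to -0.34 and whose largest adjusted p was 0.05. Just outside lay Camk1, from -1.01 to -0.27 with 0.0503, and Olfr456, from 0.58 to 2.85 with 0.0503. The split between directions rests on the scaling. Centring every array on its median instead of its 75th percentile moved the median difference of all genes from 0.055 to -0.655. It turned the counts into 1527 higher and 5056 lower of 14066. List counts under median centring are to be read against these counts of all genes, not against 20.2% and 20.8%. Small differences are therefore read against that shift, and a list whose median changes sign with it is named as such. With the scan day as a random block, limma called 4559 genes on the mean of mouse against culture (2193 higher, 2366 lower), or 32.4%, against 11465 (81.5%; 41.6% higher and 39.9% lower) without the block. With the mean of each group taken as a single sample, 2443 (17.4%) were called, and 2429 of those were among the 5776.

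The repeat on the knockout and knockdown arrays ran the same way for most genes. There, both mouse groups are Pparg knockouts, and the culture groups are Pparg and Gyk knockdowns. Those arrays shared slides and scan days with the controls. Of 2797 genes higher in control mice and measured there, 1942 (69.4%) were again higher in all 4 comparisons. Of 2917 lower genes, 2226 (76.3%) were again lower. Against all 14265 genes tested on those arrays, 17.1% were higher and 20.5% lower in all 4. Only 20 of the higher genes and 20 of the lower ones were called in the opposite direction on the mean of knockouts against knockdowns, which called 77.2% of genes (37% higher, 40.2% lower).

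Adipocyte genes were strong on both sides, beside a preadipocyte label. Ucp1, the uncoupling protein of brown fat, read 10.02, 9.84, 10.23 and 10.57 in the room-temperature mice and 9.20, 8.99, 9.13 and 9.20 in the cold. In the Pparg culture controls it read 6.36, 6.36, 6.69 and 6.67, and in the Gyk culture controls 7.56 and 7.27 on arrays 3 and 4. The spots of Gyk arrays 1 and 2 were marked as outliers by the scanner software and left out. All mouse arrays lay above all culture arrays, and the cold mice lay below those at room temperature. The fitted difference was 2.68 ± 0.12 (SE), or 6.41-fold, with a limma adjusted p of 1.61e-10. An exact 2-sided permutation test of 8 against 6 arrays gave p = 0.000666, the smallest it can give (0.00122 adjusted over 11 genes fixed for this test). Such tests exchange single arrays and ignore that arrays of a group share slides and a scan day. limma's adjusted p for Ucp1 was 0.000296 with the scan day as a random block and 0.0268 with each group's mean as a single sample.

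Fabp4, a fatty acid carrier of differentiated adipocytes, lay at 9.55 to 10.29 in mice with a median of 9.76. The culture arrays lay at 8.80 to 9.38 with a median of 9.11. These ranges did not overlap (exact permutation p = 0.000155, adjusted 0.000427). The difference of 0.75 ± 0.07 (SE) shrank to 0.08 under quantile normalization and to 0.04 under median centring, with limma adjusted p of 0.197 and 0.71. With the scan day as a random block its adjusted p was 0.0493, and with group means as samples 0.324. Plin1, which coats lipid droplets, read 6.16, 5.84, 6.03 and 6.04 in room-temperature mice. That is within the culture range of 5.62 to 6.22, whereas the cold mice read 7.5, 7.35, 7.26 and 7.56. Its mean difference of 0.78 passed limma's test, with an exact permutation p of 0.0196 (adjusted 0.0269), yet it was not kept, since room temperature did not differ from both cultures. The call on the mean was lost with the scan day as a random block (limma adjusted p = 0.141) and with group means as samples (0.404).

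Adipoq, the adipokine adiponectin, was split by temperature as well. It read 6.77, 5.93, 5.98 and 5.76 at room temperature and 7.71, 8.23, 8.05 and 7.72 in the cold. The Pparg culture controls read 7.28, 7.28, 7.59 and 7.71 and the Gyk controls 8.23, 8.13 and 8.04, with array 3 left out as an outlier spot. Over 8 against 7 arrays the difference was -0.73, with an exact permutation p of 0.107. Pparg itself, the nuclear receptor that drives adipocyte differentiation, spanned 5.26 to 6.4 in mice and 5.98 to 6.51 in culture. It was lower in mice by a mean of 0.66 (exact permutation p = 0.00326, adjusted 0.00513), with overlap and without passing all 4 comparisons. That difference was not called with the scan day as a random block (limma adjusted p = 0.281) or with group means as samples (0.363). Gk read 3.09, 2.62, 3.23 and 3.45 at room temperature, 2.02, 1.55, -0.17 and 0.03 in the cold, and 0.25 to 0.99 in culture. The cold arrays fell on both sides of the culture arrays, and Gk was not kept (exact permutation p = 0.0228, adjusted 0.0279). Its limma adjusted p was 0.313 with the scan day as a random block and 0.289 with group means as samples.

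Pdgfra and Dlk1 did not separate the sides. Pdgfra, the receptor that marks adipocyte precursors and fibroblasts, spanned -1.73 to -0.26 in mice and -1.36 to -0.37 in culture (difference -0.08 ± 0.11, SE; exact permutation p = 0.724). Under median centring this became -0.79 with a limma adjusted p of 1.88e-05. Dlk1, a precursor gene silenced on differentiation, spanned -1.65 to 0.62 in mice and 0.18 to 0.61 in culture and was not kept. Both sides therefore held measurable precursor and mature adipocyte transcripts. In RNA from whole samples, fewer cells of a type and less RNA per cell cannot be told apart.

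**Figure D2:**
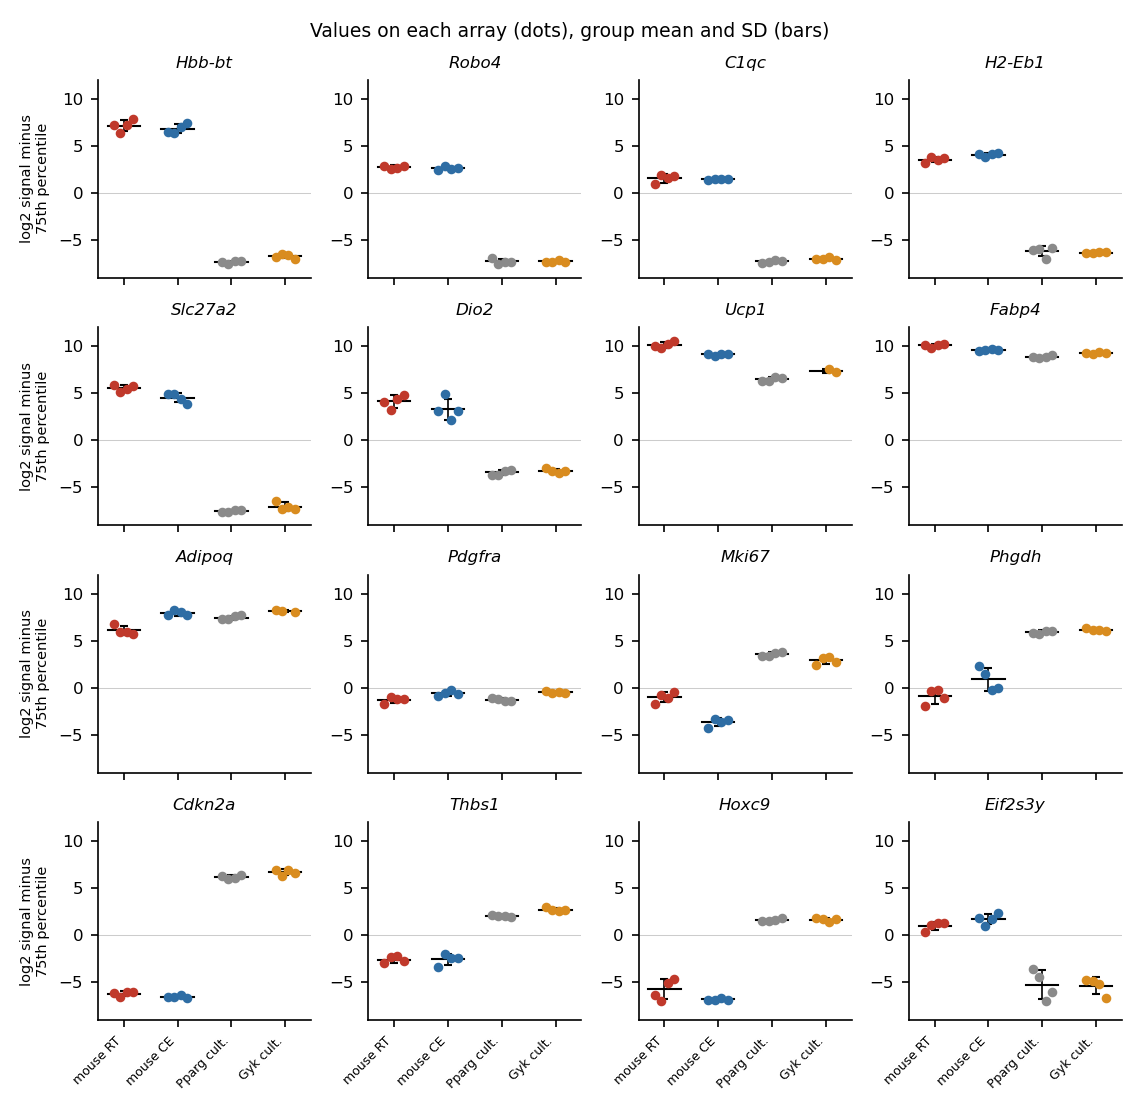
Values of 16 genes on each of the 16 control arrays, as log2 intensity minus the array's 75th percentile, 1 panel per gene and 1 point per array with bars for the group mean and SD, grouped as room-temperature mice, cold mice, Pparg culture controls and Gyk culture controls. The blood, vessel, macrophage and antigen-presentation genes stand at -7.5 to -5.8 in culture, Ucp1 and Fabp4 are high throughout, and Cdkn2a shows the reverse of the blood genes.

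Red cell genes were higher in mice. Of 12 listed, 8 were tested, all 8 were higher and none lower, with a median difference of 10.07 against 0.05 over all genes. The count is in part set by the filter: 5 of the 8 were above background on no culture array, and so could be tested only because of the mice. Among genes well above background on all 16 arrays, 1 red cell gene (Hba-a1) was higher. With normexp background correction 7 of the 8 were higher, with a median of 5.58. The beta-globin gene Hbb-bt lay at 6.35 to 7.81 in mice (median 7.12) and at -7.5 to -6.50 in culture (median -7.10), where no array was well above background. This puts it at least 4670-fold higher in mice, the array's floor serving as the culture level. Hba-a1, an alpha-globin gene, lay at 7.52 to 8.84 in mice and -4.70 to -3.16 in culture. It was well above background on all 16 arrays, and its difference of 12.43 ± 0.22 (SE) was the largest among genes measured everywhere. The globin genes have near-identical copies (Hba-a1 and Hba-a2; Hbb-bs, Hbb-bt and Hbb-b2), so how the signal divides among them is uncertain. Alas2, the heme synthesis enzyme of erythroid cells, was at least 187-fold higher.

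Of 22 endothelial genes 22 were higher in mice, with a median of 6.34. Of these, 8 were above background on no culture array with any probe, so they passed the filter through the mice, which favours a difference. On the brightest probe alone, 11 were above background on no Pparg culture array and 11 on no Gyk culture array. Among genes well above background on all 16 arrays, 8 endothelial genes were higher. With normexp background correction 21 of the 22 were higher, with a median of 3.48. Robo4, a receptor of vessel endothelium, spanned 2.44 to 2.89 in mice (median 2.65) and -7.5 to -6.90 in culture (median -7.31), below background on all 8 culture arrays, and so at least 236-fold higher. Gpihbp1, which anchors lipoprotein lipase on capillaries, was measured on all 16 arrays. It spanned 4.88 to 5.95 and -4.01 to -2.84, a difference of 8.90 ± 0.15 (SE). Ptprb, an endothelial phosphatase, differed by 10.19, with 1 of 8 culture arrays well above background, and Flt1, a receptor for Vegfa, by 9.27 with 4 of 8. Emcn and Tie1, both endothelial surface proteins, were at least 49.3-fold and 38.8-fold higher. The smallest difference in the list was 1.55, for Kdr, the main Vegfa receptor.

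The adhesion protein Pecam1 ranged from -0.43 to 0.23 in mice and from -7.01 to -3.71 in culture, with 5 of 8 culture arrays well above background (exact permutation p = 0.000155, adjusted 0.000427). Summed over the list on the linear scale, relative to each array's 75th percentile, endothelial signal was 210 to 266 at room temperature and 238 to 295 in the cold. In the Pparg and Gyk culture controls it was 10.1 to 12 and 9.8 to 11.3. Mouse arrays thus stood above all culture arrays in the sum. Red cell signal summed to 963 to 2220 and 1110 to 1450 in the mice and to 0.148 to 0.276 in culture.

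Of 17 macrophage genes tested, 16 were higher in mice with a median of 4.76, and the other was Itgam, an integrin of myeloid cells. Of the 17, 7 were above background on no culture array, and among genes well above background on all 16 arrays 4 were higher. With normexp background correction 13 were higher, with a median of 2.21. The complement gene C1qc spanned 0.90 to 1.95 in mice (median 1.53) and -7.39 to -6.84 in culture, where it was never well above background, hence at least 106-fold. Tyrobp, a signalling adaptor of myeloid receptors, was at least 98.6-fold higher, and Mrc1, the mannose receptor, at least 40.5-fold. Adgre1, which encodes the macrophage marker F4/80, spanned -2.51 to -1.19 in mice and -6.25 to -2.94 in culture, without overlap (exact permutation p = 0.000155, adjusted 0.000427). With the scan day as a random block it was not called (limma adjusted p = 0.0726). It was well above background on 6 of 8 culture arrays, and on the second Pparg slide it was 2.35 higher than on the first.

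Antigen presentation genes were uneven: 5 of 8 tested members of the MHC class II list were higher, 1 of them (Cd74) among genes well above background on all 16 arrays. Of the 8, 3 were above background on no culture array. With normexp background correction 4 were higher. H2-Eb1, a class II beta chain, was at 3.21 to 4.25 in mice and -6.98 to -5.80 in culture, at least 517-fold apart. H2-Aa was at least 51.8-fold higher. Cd74, the invariant chain, was measured on all 16 arrays and differed between the cultures too, with group means of -2.51 in the Pparg and 1.49 in the Gyk controls, both below the mouse means of 2.31 and 3.86. H2-DMa and H2-DMb1, which load class II peptides, were not kept, at differences of -0.03 and -0.63.

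Lymphocyte, mast cell and neutrophil genes were dim. Of 9 lymphocyte genes tested 5 were higher: Cd79b of the B cell receptor was at least 4.92-fold higher, the granzyme Gzma at least 4.89-fold and the T and natural killer cell protein Cd2 at least 2.82-fold. Without cold arrays 1 and 2 the count was 3, and with normexp background correction it was 1. Of the 9 lymphocyte genes, 4 were above background on no culture array, so they passed the filter through the mice. Among genes well above background on all 16 arrays, 2 lymphocyte genes were higher. Of 9 mast cell and neutrophil genes 7 were higher and 1 lower, with a median of 3.38. With normexp background correction 3 were higher and none lower, with a median of 0.78. Of these 9, 4 were above background on no culture array, and among genes well above background on all 16 arrays 1 was higher. The mast cell protease Mcpt4 was at least 24.4-fold, the mast cell receptor Kit at least 23-fold and the neutrophil protein S100a9 at least 20.9-fold higher. Camp, which encodes an antimicrobial peptide, was the member lower in mice, by 1.44, and it was not kept without the Pparg controls of the second slide.

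Markers of vessel walls and nerve did not move as a block. Among 12 mural and smooth muscle genes 6 were higher and 2 lower, beside 20.2% and 20.8% of all genes. Of the 12, 2 were above background on no culture array, and among genes well above background on all 16 arrays 2 were higher. The pericyte genes Rgs5 and Kcnj8 were at least 195-fold and 35.5-fold higher, both below background on every culture array. Abcc9, the channel partner of Kcnj8, differed by 8.54 and was well above background on 1 culture array, a Pparg control of the second slide. The contractile genes divided. Cnn1 and Myh11 were higher by 2.86 and 2.51. Acta2, smooth muscle actin, lay at 0.91 to 2.37 in mice and 4.59 to 5.17 in culture, lower by 3.4 ± 0.14 (SE), and the myosin kinase Mylk was lower by 1.39.

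Among 12 nerve and Schwann cell genes 5 were higher and 2 lower, beside 20.2% and 20.8% of all genes. Sox10, which specifies Schwann cells, was higher by 2.67 with 4 of 8 culture arrays well above background, S100b by 2.99 and the glial receptor Gfra3 by 4.51. The adhesion molecule Ncam1 was lower in mice by 3.94. Pmp22, a myelin protein, was lower by 0.84, but by 0.08 when all its probes were averaged (limma adjusted p = 0.584). Th, the enzyme that makes catecholamines in sympathetic nerve, was not kept. Its group means were -0.02 at room temperature, -1.87 in the cold, -2.92 and -2.12 in the cultures.

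Fibroblast and precursor genes leaned to mice. Of 18 genes, 11 were higher and 2 lower, with a median of 2.30. Of the 18, 3 were above background on no culture array, so they passed the filter through the mice. With normexp background correction 10 were higher and 2 lower, with a median of 1.12. Lum, a matrix proteoglycan of fibroblasts, was below background on every culture array and at least 129-fold higher. Pi16, which marks adventitial fibroblasts, spanned 2.09 to 4.75 in mice and -3.56 to -2.61 in culture, a difference of 6.41 ± 0.16 (SE). Dcn and the progenitor antigens Cd34 and Ly6a (Sca-1) were higher by 6.38, 5.85 and 4.02. S100a4, a calcium-binding protein of motile fibroblasts, ran the other way at 1.28 to 2.15 against 4 to 6.17, lower by 3.28. Zfp423, a transcriptional regulator of preadipocytes, was lower by 0.82.

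Muscle genes depended on single arrays. Of 11 skeletal muscle genes tested 1 was higher (Myl1, by 5.81) and 1 lower (Mb, by 4.32). Acta1, the actin of skeletal muscle, read 5.84 and 6.13 on cold arrays 1 and 2, -5.19 and -0.04 on arrays 3 and 4, and -3.96 to -2.70 at room temperature. The cultures read -0.48 to 0.21 and 1.13 to 1.61. Fast troponin C, Tnnc2, read 6.21 and 6.81 on the same cold arrays against -3.28 and 0.59 on the others. Both genes were thus far above culture on cold arrays 1 and 2 and below it in all room-temperature mice. The summed muscle signal was 11.5 to 17.9 at room temperature, 18.4 to 494 in the cold, and 16.3 to 23.7 and 59.9 to 77.7 in the cultures. Without both cold arrays 2 muscle genes were higher and 3 lower.

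Myoglobin (Mb), the oxygen store of muscle that brown adipocytes also express, read 2.07, -1.16, -1.46 and 0.68 at room temperature. In the cold it read 3.24, 3.54, -0.57 and -1.03. The Pparg controls read 3.61, 3.81, 4.24 and 4.18 and the Gyk controls 5.77, 5.98, 6.16 and 6.13. Culture was above all mouse arrays. Mb was not kept with the slide as a random block, without cold array 3 or array 4, or without either pair of Pparg culture arrays. Its limma adjusted p on the mean was 0.162 with the scan day as a random block and 0.0164 with group means as samples. On the knockout and knockdown arrays Mb pointed the other way, higher in mice by 2.11.

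**Figure D3:**
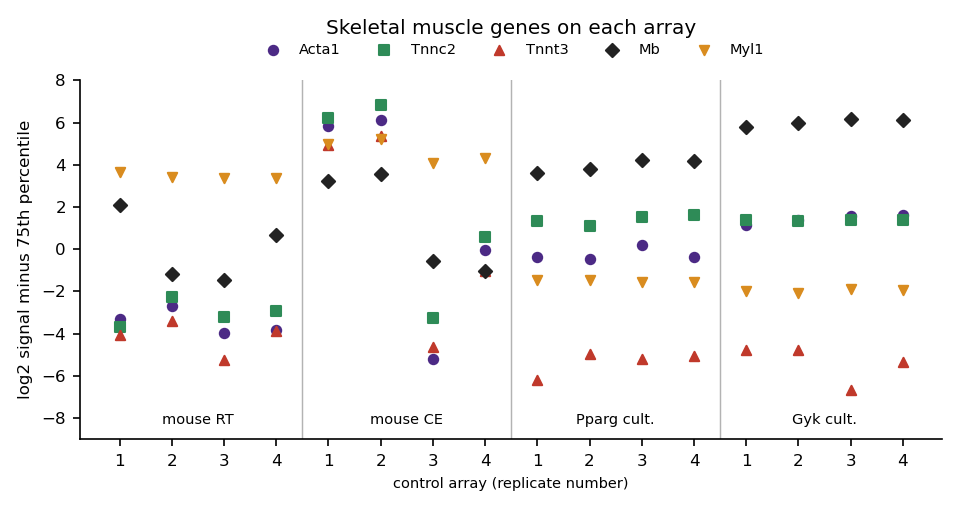
Values of Acta1, Tnnc2, Tnnt3, Mb and Myl1 on each of the 16 control arrays (log2 intensity minus the 75th percentile), 1 point per array, grouped as in the plot of 16 genes. Acta1, Tnnc2 and Tnnt3 are high on cold arrays 1 and 2 (4.94 to 6.81) and not on arrays 3 and 4, whereas Mb is higher in both cultures than on every mouse array.

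Thermogenic transcripts were higher in mice for part of the list. Of 21 brown adipocyte genes 12 were higher and 1 lower, with a median of 1.58 (0.87 under median centring). Of the 21, 2 were above background on no culture array. Slc27a2, which activates very long chain fatty acids, spanned 3.88 to 5.85 in mice (median 5.07) and -7.57 to -6.4 in culture. It was never well above background in culture and was at least 1220-fold higher. Dio2, which makes active thyroid hormone, was measured on all arrays at 2.19 to 4.89 and -3.65 to -2.93, a difference of 7.03 ± 0.31 (SE), or 131-fold. No mouse array came near a culture array for either gene. Elovl3, the cold-inducible fatty acid elongase, was higher by 7.29. Its group means were 6.14 at room temperature and 0.51 in the cold.

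Cox8b, a cytochrome oxidase subunit enriched in brown fat and muscle, was steady within each side, at 9.44 to 9.90 in mice and 5.85 to 6.38 in culture, higher by 3.53 ± 0.08 (SE). Otop1, a proton channel, and Pank1, which makes coenzyme A, were higher by 3.75 and 3.66. Cidea, a lipid droplet protein of brown fat, was higher by 1.61 and the potassium channel Kcnk3 by 1.58. The regulators did not share this. Ppargc1a, the coactivator of mitochondrial biogenesis, spanned 2.08 to 4.75 in mice and 2.71 to 3.47 in culture (difference 0.62 ± 0.32, SE). Prdm16 and Ebf2, which set brown identity, differed by 0.69 and -0.42, and neither was kept. Zic1, a brown fat lineage marker, was lower by 0.82 ± 0.13 with a largest adjusted p of 0.0476, and was no longer kept when any single Pparg culture control was left out.

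Receptors for thermogenic signals were split. Of 19 adrenergic and insulin signalling genes tested 5 were higher, near the 20.2% of all genes, and 1 was lower, below the 20.8% of all genes. Under median centring 4 were higher and 4 lower, and the median of 0.38 turned to -0.33. Adrb3, through which noradrenaline drives lipolysis and heat, spanned 4.09 to 6.32 in mice and 5.16 to 5.36 in culture (difference -0.33 ± 0.22, SE). Culture values were tightly grouped inside the mouse range. Ptger3, a prostaglandin receptor, was higher by 6.28 with 4 of 8 culture arrays well above background, and Adra1a, an alpha receptor, by 5.82 with 1 of 8. Prkar2b, a regulatory subunit of protein kinase A, spanned 7.43 to 7.90 and 5.50 to 5.76, higher by 2.05. The insulin receptor substrate Irs1 was lower in mice by 1.96, but by 0.22 on another probe measured on all 16 arrays, and the receptor Insr itself was higher by 0.95.

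Transcripts of mitochondrial fuel use were higher in mice for part of each list, and fewer passed as higher under median centring. Over all genes, that centring left 1527 of 14066 higher and 5056 lower. Among 21 fatty acid oxidation genes 15 were higher and none lower, at a median of 1.25. Under median centring 7 were higher and 1 lower. The largest was Acss1, which activates acetate in mitochondria, at 5.03 to 6.12 in mice and -0.57 to -0.11 in culture (5.87 ± 0.13, SE). Both carnitine transferases of brown fat followed: Cpt2 was higher by 4.20 and Cpt1b by 2.48. Another probe of Cpt2, also measured everywhere, differed by 1.74. Cpt1a, the liver form, was not kept (-0.31). Hadha, a subunit of the trifunctional protein, differed by 0.16, whereas its partner Hadhb was higher by 1.4.

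Of 24 TCA cycle genes 14 were higher and none lower, with a median of 0.92. Under median centring 4 were higher and 2 lower, beside 1527 and 5056 of all 14066 genes. The pyruvate dehydrogenase parts Dlat and Pdhb were higher by 2.47 and 2.15 (8.14 on another Pdhb probe) and the pyruvate carrier subunit Mpc1 by 2.34. Citrate synthase (Cs) spanned 8.5 to 9.22 in mice and 8.56 to 8.80 in culture, an overlap, with a difference of 0.16. Pdhb was 1.23 lower on the second than on the first Pparg slide. Of 25 nuclear respiratory chain genes 11 were higher and none lower, at a median of 0.65, which became -0.06 under median centring with 3 higher and 1 lower. Uqcrfs1 of complex III and Cox5b of complex IV were higher by 2.04 and 1.83. Cox5b was not called with the scan day as a random block (limma adjusted p = 0.0712). Ndufb8, Cox4i1 and Atp5d differed by 0.20, 0.12 and 0.03 and were not kept.

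Lipogenic genes went both ways. Among 17 lipogenic genes 6 were higher and 4 lower, beside 20.2% and 20.8% of all genes, and under median centring 3 and 5. The elongase Elovl6 lay at 5.69 to 7.47 in mice (median 6.52) and 2.34 to 3.07 in culture (median 2.88), higher by 3.73 ± 0.22 (SE). Acacb, which makes malonyl-CoA at the mitochondrion, was higher by 2.47 and the lipogenic regulator Thrsp by 2.30. Fads1, a desaturase that makes polyunsaturated fatty acids, lay at -2.51 to 0.45 in mice and 2.55 to 3.06 in culture, lower by 3.53. Fads2, its partner, was lower by 3.65, with 4 of 8 mouse arrays well above background. Scd2, a desaturase of precursors, and Srebf1, the lipogenic transcription factor, were lower by 1.92 and 1.65. For Scd2 the limma adjusted p on the mean was 0.186 with the scan day as a random block and 0.0497 with group means as samples.

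Genes of the mature adipocyte were mixed as well, 10 of 27 higher and 4 lower, beside 20.2% and 20.8% of all genes. The median of 0.64 became -0.07 under median centring, with 5 higher and 6 lower. The count lower was 2 without cold array 1, and also 2 with the slide as a random block. Pck1, an upstream enzyme on a route to glycerol-3-phosphate in fat, lay at 5.44 to 8.52 in mice and 3.64 to 4.10 in culture. It was higher by 3.43 ± 0.21 (SE). Pnpla2, the triglyceride lipase, was higher by 3.08, with the second Pparg slide 1.55 below the first, and Dgat2, the last enzyme of triglyceride synthesis, by 2.15. Leptin (Lep) was lower in mice by 2.52, with 5 of 8 mouse arrays well above background. Its limma adjusted p on the mean was 0.243 with the scan day as a random block and 0.0373 with group means as samples. Fabp5, the fatty acid carrier also made by macrophages and skin, was lower by 2.31 and the imprinted gene Nnat by 1.62. Nnat was not called with the scan day as a random block (limma adjusted p = 0.106).

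Among genes measured on all 16 arrays, others high in mice belonged to no single list. Fmo1, a flavin monooxygenase, was higher by 7.93 and the thermogenic thioesterase Acot11 by 7.61. Mapt, the microtubule protein tau, was higher by 7.18, the import receptor Tomm22 by 6.88 and the fructose carrier Slc2a5 by 6.80. Tomm22 was 2.56 lower on the second than on the first Pparg slide. The complement inhibitor Serping1 was higher by 6.43, Shtn1 by 6.41 and Ushbp1 by 6.4. Genes seen only in mice included Gstk1 (at least 498-fold), a glutathione transferase of mitochondria and peroxisomes, and the cytochrome P450 Cyp4b1 (at least 240-fold). Cxadr, a junction protein, was at least 268-fold higher on its brightest probe, but by 2.82 on the log2 scale on another probe of the gene. Other genes of this kind were Ctla2a, Pla2g7, Retnla and the platelet chemokine Pf4, at least 218-fold to 253-fold higher.

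**Figure D4:**
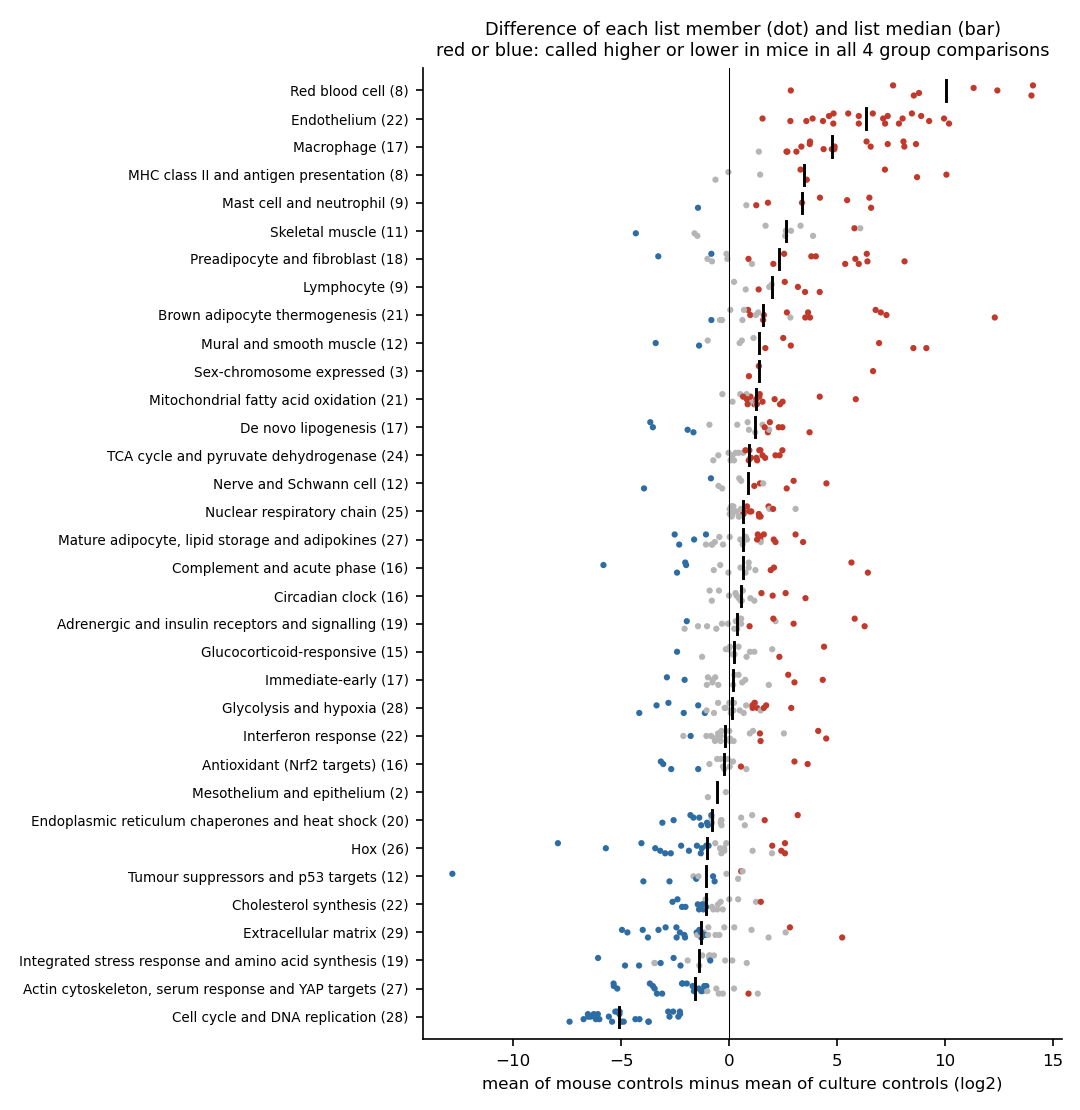
Mean mouse minus mean culture difference (log2) for the tested members of 34 gene lists, 1 dot per gene, with a bar at the median of each list. Red dots are higher and blue dots lower in all 4 comparisons, and all other dots are grey. Blood, endothelial and macrophage lists lie to the right and the proliferation list lies entirely to the left, at a median of -5.12. Medians near 0 shift by about -0.71 under median centring and can change sign.

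Cell division genes were the clearest block on the culture side. Of 29 genes 28 were tested, and all 28 were lower in mice, with a median of -5.12. Of the 28, 4 were above background on no mouse array with any probe, so they passed the filter through culture, which favours a difference. On the brightest probe alone, 5 were above background on no room-temperature array and 5 on no cold array. Among genes well above background on all 16 arrays, 17 were lower. With normexp background correction 26 were lower, with a median of -3.51. For all 28 the 8 mouse arrays lay below the 8 culture arrays, which was so for 18.5% of all genes tested. All 28 were lower again on the knockout and knockdown arrays, with a median of -5.06. Mki67, the proliferation antigen, spanned -4.23 to -0.39 in mice (median -2.50) and 2.47 to 3.82 in culture (median 3.37). Its difference was -5.57 ± 0.19 (SE; exact permutation p = 0.000155, adjusted 0.000427). Room-temperature mice averaged -0.99 and cold mice -3.65 for this gene. Cdc20, which activates the anaphase ubiquitin ligase, spanned -3.44 to -1.41 and 4.15 to 4.70, lower by 6.74 ± 0.10 (SE) and the largest such difference among genes measured everywhere.

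Mitotic genes and replication genes took part alike. Cyclin B2 (Ccnb2) was lower in mice by 6.52, the survivin gene Birc5 by 6.23 and the mitotic kinase Plk1 by 6.17, with 7 of 8 mouse arrays well above background for Plk1. The topoisomerase Top2a was below background on all 8 mouse arrays and at least 41.9-fold higher in culture. Cdk1, the kinase that starts mitosis, was also below background in all mice and at least 1.94-fold higher in culture. Among replication genes, Rrm2 of ribonucleotide reductase was lower by 6.27. The helicase subunits Mcm6 and Mcm5 were lower by 6.08 and 6.01 and the licensing factor Cdt1 by 6.23. Pcna, the sliding clamp, spanned 0.89 to 1.54 and 3.14 to 3.88, lower by 2.28, one of the smallest of the list. The proliferation signal summed to 9.33 to 12.8 in mice and to 265 to 378 in culture.

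Because these genes stood together, the 200 bases before the annotated start are printed for 5 of them, 3 of mitosis and 2 of replication. All 5 are among the promoters that hold the motif marked in them, so they do not represent the list. RefSeq (GRCm38.p6) promoter sequences were matched for 24 of the 28 genes, and the motifs of cell-cycle promoters were searched on both strands. These were TTTGAA or TTCGAA, the cell-cycle homology region of late genes, TTTCCCGC or TTTGGCGC, bound by E2F factors, and CCAAT, bound by NF-Y. None of these letter strings contains another. Matches to the first kind (Cdc20, Cdk1 and Top2a) or the E2F kind (Mcm5 and Mcm6) stand in capitals. Each is printed 5′ to 3′ in the direction of the gene. Cdc20 is chr4:118437344-118437543 (minus strand), Cdk1 chr10:69352913-69353112 (minus), Top2a chr11:99024190-99024389 (minus), Mcm5 chr8:75109309-75109508 (plus) and Mcm6 chr1:128359706-128359905 (minus).
Cdc20: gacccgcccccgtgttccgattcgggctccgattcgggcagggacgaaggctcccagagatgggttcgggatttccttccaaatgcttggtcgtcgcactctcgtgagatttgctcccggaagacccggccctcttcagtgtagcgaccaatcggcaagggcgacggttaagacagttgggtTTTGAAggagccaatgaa
Cdk1: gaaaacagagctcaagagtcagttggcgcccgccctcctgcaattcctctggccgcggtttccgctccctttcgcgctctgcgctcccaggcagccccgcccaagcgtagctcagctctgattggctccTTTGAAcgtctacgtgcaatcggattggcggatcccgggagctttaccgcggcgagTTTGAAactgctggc
Top2a: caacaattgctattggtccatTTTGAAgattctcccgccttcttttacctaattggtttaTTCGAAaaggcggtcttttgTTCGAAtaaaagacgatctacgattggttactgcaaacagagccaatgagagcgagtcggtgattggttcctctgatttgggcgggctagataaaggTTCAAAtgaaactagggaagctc
Mcm5: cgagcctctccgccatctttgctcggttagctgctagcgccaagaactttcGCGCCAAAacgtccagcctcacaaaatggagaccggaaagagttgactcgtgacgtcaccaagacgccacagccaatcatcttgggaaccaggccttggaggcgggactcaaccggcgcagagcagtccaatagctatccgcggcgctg
Mcm6: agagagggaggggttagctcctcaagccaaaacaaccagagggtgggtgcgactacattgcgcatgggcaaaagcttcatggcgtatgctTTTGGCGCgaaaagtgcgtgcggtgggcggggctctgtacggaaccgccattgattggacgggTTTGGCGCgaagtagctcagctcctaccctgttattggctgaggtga

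The first motif was held by 8 of the 24 genes (33.3%) and by 15.4% of 27025 genes, a gene counting if any of its promoters of this length held it. The E2F motif was held by 4 of 24 (16.7%) and by 1.3% of all, and CCAAT by 18 of 24 (75%) and 32.7%. In Cdc20 the match began 18 bases before the start. In Cdk1 the matches began 71 and 15 bases before it, and in Top2a there were 4. Mcm5 held 1 E2F match, 149 bases before the start, and Mcm6 held a pair, 110 and 47 bases before it. A match of letters is a description and shows no bound factor.

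The cell-cycle inhibitor genes Cdkn2a and Cdkn2b were lower in mice. Cdkn2a, which encodes p16INK4a and p19ARF, lay between -6.65 and -6.01 on all 8 mouse arrays and was not well above background on any. In culture it lay between 5.97 and 6.96, at least 2100-fold higher, and another probe of the gene differed by -8.31. Its neighbour Cdkn2b, which encodes p15INK4b, was measured everywhere and was lower in mice by 3.97 ± 0.27 (SE). Of 12 genes in the list of tumour suppressors and p53 targets, 6 were lower and 1 higher, beside 20.8% and 20.2% of all genes. Trp53 itself was lower by 2.76 with 6 of 8 mouse arrays well above background, and its target Cdkn1a (p21) by 1.52. Ccng1, also a p53 target, was higher by 0.56 but -0.15 under median centring.

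Some genes of amino acid synthesis were lower in mice. Of 19 genes of the integrated stress response and amino acid synthesis, 7 were lower and none higher, beside 20.8% and 20.2% of all genes. The other 12 did not pass all 4 comparisons. Phgdh, the first enzyme of serine synthesis, spanned -1.95 to 2.37 in mice (median -0.25) and 5.71 to 6.39 in culture (median 6.08), lower by 6.07 ± 0.34 (SE), or 67-fold. Psat1, the next enzyme, was lower by 4.82, and Aldh18a1, which starts proline synthesis, by 4.17 with 4 of 8 mouse arrays well above background. Shmt2, which passes serine carbon to folate in mitochondria, was lower by 3.17. Asns, the asparagine synthetase, spanned 4.75 to 5.32 and 4.82 to 5.62 and did not separate the sides (-0.18). Atf4, the transcription factor of this response, differed by -0.92 and was not kept. The count lower was 11 without cold array 1, 11 under quantile normalization and 14 under median centring.

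Matrix and cytoskeleton genes leaned to culture. Of 29 matrix genes tested 16 were lower in mice and 2 higher, with a median of -1.30. Thbs1, thrombospondin 1, lay at -3.4 to -2.04 in mice and 1.91 to 2.97 in culture, lower by 4.96 ± 0.17 (SE), or 31-fold. Fibronectin (Fn1) lay at 1.02 to 2.12 and 5.19 to 5.76, lower by 4 ± 0.15, and the metalloprotease inhibitor Timp1 was lower by 4.71. All chains of collagen VI that were listed (Col6a1, Col6a2 and Col6a3) were lower, by 3.27, 2.43 and 2.28. The fibrillar collagens did not join them evenly. Col1a2 was lower by 1.11, whereas Col1a1 (-0.96) and Col3a1 (1.04) were not kept. Lama2, the laminin chain of muscle and nerve basement membrane, was higher by 5.24, and Timp3 by 2.82.

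Of 27 genes of the actin cytoskeleton and of serum response and YAP signalling, 19 were lower in mice and 1 higher, with a median of -1.56. Ankrd1, a YAP target, was below background in all mice and at least 10.5-fold higher in culture. Fhl2 was lower by 5.18 with 6 of 8 mouse arrays well above background. Other YAP targets, Cyr61 and Ctgf, were lower by 3.53 and 3.1. The S100 protein S100a6 spanned 4.28 to 5.42 and 7.87 to 8.99, lower by 3.45. Vimentin (Vim) was the member higher in mice, by 0.90, and by 0.19 under median centring (limma adjusted p = 0.128). Actb differed by -0.48 and was not kept.

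Sterol synthesis genes were lower in mice for 10 of 22 and higher for 1, with a median of -1.08. Mvd of the mevalonate pathway spanned -0.77 to 1.76 in mice and 2.53 to 3.16 in culture, lower by 2.62 ± 0.22 (SE). Dhcr7 and Hsd17b7, late enzymes of the pathway, were lower by 2.39 and 2.18, and Srebf2, its transcription factor, by 1.45. A second Hsd17b7 probe, measured on all 16 arrays, differed by -0.40. Hmgcs1, an early enzyme, overlapped at 4.58 to 5.28 and 4.83 to 5.2 (0.01). Sc5d was the gene higher in mice, by 1.47, but it was not called with the scan day as a random block (limma adjusted p = 0.0849). Of 20 endoplasmic reticulum chaperone and heat shock genes 9 were lower and 2 higher, beside 20.8% and 20.2% of all genes. Sdf2l1 and Pdia4 were lower by 3.09 and 2.57, while Hspa5, the central chaperone of that compartment, differed by -0.35 and was not kept. The small heat shock gene Hspb1 was higher in mice, by 3.18.

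Of 28 glycolytic and hypoxia genes 7 were higher and 6 lower, near the shares of all genes (20.2% and 20.8%). Under median centring 2 were higher and 9 lower, beside 1527 and 5056 of all 14066 genes. The median of 0.15 turned to -0.57 under median centring and -0.01 under quantile normalization. The hexokinases went in opposite directions. Hk2, the form of muscle and fat, was higher in mice by 2.88 and Hk1 lower by 1.12. Likewise the insulin-regulated glucose carrier Slc2a4 of the adipocyte list was higher by 1.30 and the general carrier Slc2a1 lower by 2.10. Adm, the hypoxia-responsive peptide adrenomedullin, was lower by 4.16 with 4 of 8 mouse arrays well above background, and the lactate exporter Slc16a3 by 3.36.

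Antioxidant and acute-phase genes were also mixed. Of 16 Nrf2-related genes 3 were higher and 4 lower, near the 20.2% and 20.8% of all genes. Under median centring 1 was higher and 9 lower, beside 1527 and 5056 of all 14066 genes. Heme oxygenase (Hmox1) was lower in mice by 3.16 (by 1.44 on another probe), Osgin1 by 3.05 and Nqo1 by 2.68, while the secreted peroxidase Gpx3 and the transferase Gsta3 were higher by 3.03 and 3.64. Sod2 was higher by 0.55 but -0.16 under median centring. Of 16 complement and acute-phase genes 4 were higher and 4 lower, near the same 20.2% and 20.8%. Their median of 0.64 became -0.07 under median centring. Complement C3 was higher by 1.93. Saa3, an acute-phase apolipoprotein, was below background in all mice and at least 15.6-fold higher in culture. Lcn2, which binds bacterial siderophores, was lower by 2.41 and ceruloplasmin (Cp) by 2.03.

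Hox genes differed between the sides in both directions. Of 26 Hox genes tested, 14 were lower in mice and 4 higher, beside 20.8% and 20.2% of all genes. Of the 26, 4 were above background on no mouse array, so they passed the filter through culture. Among genes well above background on all 16 arrays, 8 were lower. With normexp background correction 11 were lower and 4 higher, and the list's median of -1 became -0.42. The Hox genes are transcription factors in 4 clusters whose numbering follows the head-to-tail body axis. Hoxc9 lay at -6.94 to -4.64 in mice, below background on all 8 arrays, and at 1.38 to 1.83 in culture, at least 74.9-fold higher. Hoxb9 was likewise below background in mice and at least 14.9-fold higher in culture, and Hoxd9 at least 2.22-fold. Hoxc10 was lower in mice by 4.06, with 2 of 8 mouse arrays well above background. Hoxc8 was lower by 3.42 with 6 of 8, and Hoxb6, Hoxb8 and Hoxb7 by 3.19, 2.96 and 2.22.

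Members with lower numbers were mixed. Hoxc4 lay at 0.68 to 1.30 in mice and -2.28 to -1.03 in culture, higher by 2.42 ± 0.16 (SE), and Hoxc5 was higher by 2. Hoxa5 and Hoxa7 were both higher by 2.59, with 6 of 8 culture arrays well above background for Hoxa5. They were 1.32 and 1.11 lower on the second than on the first Pparg slide. Within the C cluster the order ran from Hoxc4 and Hoxc5, higher in mice, to Hoxc6, Hoxc8, Hoxc9 and Hoxc10, all lower. Hoxb2 and Hoxa4 were lower by 1.06 and 0.95. Hoxd4, Hoxd8 and Hoxa10 were lower by 1.86, 1.49 and 1.26. Hoxa2, Hoxa3, Hoxa6, Hoxb4 and Hoxb5, at -0.64 to -0.13, were not kept, and neither were Hoxb3 (1.99) and Hoxa9 (1.09). In the repeat on knockout and knockdown arrays 3 Hox genes were higher and 12 lower.

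**Figure D5:**
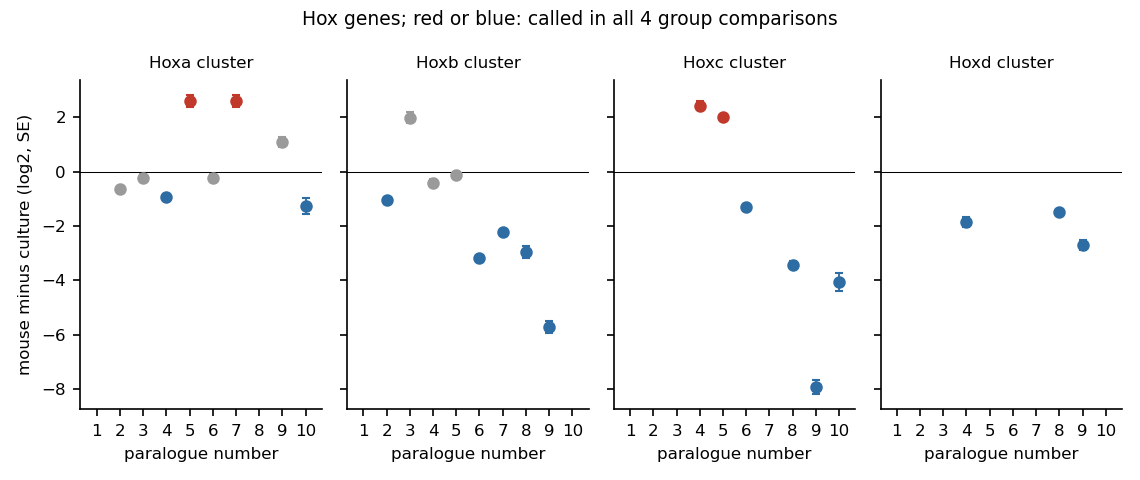
Mouse minus culture difference (log2) of the Hox genes named in the text against their number within the A, B, C and D clusters, with the SE of the fit as error bar. Red points are higher and blue points lower in mice in all 4 comparisons, and grey points are neither. Hoxc4 and Hoxc5 lie at 2.42 and 2, Hoxc9 lies at -7.93, and the genes numbered 8 and above are below 0 except Hoxa9 at 1.09.

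Ptx3, a pattern-recognition protein, and Rarres1 were below background on all 8 mouse arrays and at least 35.8-fold and 30.5-fold higher in culture. The transcript 2610524H06Rik (42.6-fold) and the division genes Arhgef39 (40.2-fold), Shcbp1 (38.1-fold), Aspm (28.2-fold) and Exo1 (27.9-fold) had lower bounds in the same range. Aqp8, a water channel, was at least 31.7-fold higher in culture, while another probe of the gene differed by -1.74.

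Of 3 sex-linked genes tested 3 were higher in mice, but 1 under normexp background correction and 1 under median centring. Ddx3y, on the Y chromosome, was well above background on all 16 arrays. It lay at 1.26 to 1.83 in mice and 0.05 to 1.28 in culture, with a difference of 0.92 (exact permutation p = 0.000311, adjusted 0.000684) that was 0.21 under median centring (limma adjusted p = 0.0732). With group means as samples it was not called (adjusted p = 0.276). Uty was higher by 1.38 with 6 of 8 culture arrays well above background, and by 0.42 under normexp background correction, where it was not called (limma adjusted p = 0.0794). Eif2s3y lay at 0.33 to 2.34 in mice and -6.97 to -3.62 in culture, with 2 of 8 culture arrays well above background. On the second Pparg slide it was 2.50 below the first. Xist, from the inactive X chromosome, and the Y-linked Kdm5d were not well above background on any of the 16 arrays.

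The mouse groups also differed widely from each other. Between cold and room temperature 9232 genes (65.6%) were called, 5826 higher (41.4%) and 3406 lower (24.2%). For 383 genes, the mouse groups lay on opposite sides of both cultures: 303 were lower at room temperature and higher in the cold, and 80 the reverse. Dbt, of branched-chain amino acid breakdown, averaged 2 at room temperature against -6.55 in the cold and -7.29 and -6.84 in the cultures. Rpe, of the pentose phosphate pathway, averaged 0.98 against -6.98 in the cold and -7.56 and -7.28 in culture. In all, 108 genes were well above background on all 4 room-temperature control arrays and on none of the other 12, and 95 of these were also on all 4 room-temperature knockout arrays. The cold controls had 35 such genes, and the Pparg and Gyk culture controls 23 and 10. Of these, 20, 20 and 2 were also on all 4 knockout or knockdown arrays of the same experiment.

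Zcrb1, a spliceosome protein, and the ribosomal pseudogene Rpl34-ps1 were lower in the cold by 7.87 and 8.06. Car12, a carbonic anhydrase, was higher in the cold by 5.80 ± 0.65 (SE; limma adjusted p = 2.04e-06). Aqp5 and B3galt2 were higher by 5.53 and 5.31. Tnnc2 was higher by 5.61, but by 1.68 without cold arrays 1 and 2 (limma adjusted p = 0.0601). Room temperature and cold were hybridised on different slides and days, so temperature and array run cannot be told apart in these values.

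Between the culture groups, 5783 genes (41.1%) were called, 3035 higher (21.6%) and 2748 lower (19.5%) in the Gyk controls. Depp1, Ndufa4l2 and Cd74 were higher in the Gyk controls by 4.57, 4.49 and 4. Syt10 was higher by 4.12, and within the Pparg controls it was 1.98 higher on the second slide than on the first. The receptor Il1rl1, the transcription factor Gcm1 and the growth factor Ereg were lower by 4.69, 4.18 and 3.82. Probes of the first and second of these disagreed. Mouse minus culture differences ran from -3.29 to 0.60 over the Il1rl1 probes and from -0.88 to 1.43 over those of Gcm1. Rps3, a ribosomal protein gene, was lower by 3.80, but its mouse minus culture difference of 3.15 was -0.14 on another probe. Both culture groups are controls at the same labelled temperature, on separate slides and days. Without the first Pparg slide the count was 5278, and without the second 4203.

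Some genes reversed between the control arrays and the knockout and knockdown arrays. Among 14856 genes, 3813 (25.7%) differed between the mouse minus culture contrast of the controls and that of the perturbed arrays. For 260 the signs were opposite and both contrasts were called, and 51 of these were among the 5776. Mb was lower in control mice by 4.32 and higher in knockout mice by 2.11. Anxa8 was lower by 4.23 and higher by 2, the lung and liver P450 Cyp2f2 lower by 1.61 and higher by 3.91, and the prostaglandin synthase Ptgs1 lower by 1.63 and higher by 2.82. For Mb the group means moved in mice from 0.03 and 1.29 in controls to 6.66 and 7.08 in knockouts. In culture they were 3.96 and 6.01 in controls and 4.39 and 5.12 in knockdowns.

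The Pparg probe checks the perturbed labels only in part. Its mean was 6.16 in the Pparg culture controls and 4.24 in the knockdown. In mice it was 5.38 and 5.83 in the controls and 7.46 and 7.96 on the arrays labelled knockout. Whether the probe lies in the deleted part of the gene is not given in the sources used here, so it checks nothing for the mice. Gk averaged 0.37 in the Gyk culture controls and -2.03 in the Gyk knockdown.

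In the clock, immediate-early and interferon lists the share higher in mice was near the 20.2% of all genes, and it was below it in the glucocorticoid list. In each of these lists the share lower in mice was below the 20.8% of all genes. Of 16 clock genes 4 were higher and none lower, among them Rora, Hlf and Nr1d2, by 3.54, 2.02 and 1.5. Hlf was not called with the scan day as a random block (limma adjusted p = 0.0709). The list's median of 0.56 turned to -0.14 under median centring. Of 15 glucocorticoid-responsive genes 2 were higher and 1 lower, with a median of 0.25 (-0.46 under median centring). The kinase Sgk1 was higher by 4.40, with the second Pparg slide 1.92 below the first, and Pdk4, which restrains pyruvate oxidation, by 2.33. Of 17 immediate-early genes 3 were higher and 2 lower, with a median of 0.19 (-0.63 under quantile normalization and -0.52 under median centring). Nr4a2 and Klf4 were higher by 4.34 and 3.03, and Myc was lower by 2.88. Btg2, the other lower gene, was lost when any of several single arrays was left out. On the mean it was not called with the scan day as a random block (limma adjusted p = 0.169).

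Of 22 interferon response genes 4 were higher and 1 lower, with a median of -0.17. Oas2 and Rsad2 were higher by 4.50 and 4.13, with 2 and 7 of 8 culture arrays well above background. Isg15 was lower by 1.78 and was not kept without room-temperature array 2 or 3 or without Pparg culture array 3 or 4. With the scan day as a random block it was not called on the mean (limma adjusted p = 0.063). Of 2 tested mesothelial and epithelial genes neither was kept. The 12195 probes without a gene name held 83 that were well above background on all 8 mouse arrays and no culture array, and 50 with the reverse.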

How the data were processed

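Total RNA of 32 samples was labelled with Cy3 and hybridised to one-colour Agilent arrays, 16 of them used as the controls compared here. Per the file headers and the submitters' processing notes, the authors extracted spot intensity values with Agilent Feature Extraction 10.7.3.1, and the deposited table of processed values is the scanner's gProcessedSignal, a background-corrected linear intensity (relative difference 0). From the deposited intensities, log2 of gProcessedSignal minus each array's 75th percentile was computed here. The array design is annotated on mm9, per the file headers, and no coordinates were taken from it.

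Control spots (1377 of 44397) and outlier spots were left out, and spots of a probe were averaged. Probes were named through RefSeq (GRCm38.p6): 27234 of 39429 (69.1%) matched. Each gene took its brightest probe, tested if well above background on at least 4 of the 16 arrays. limma 3.58.1 in R 4.3.3 fitted the 4 groups together, with empirical Bayes variances and Benjamini-Hochberg adjustment over all 14066 genes. Exact 2-sided permutation tests (scipy 1.17.1) were run for 11 genes. The scripts were tested on simulated data.

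A gene counts as well above background on an array if any of its probes does. The filter, and list counts among genes well above background on all 16 arrays, used the brightest probe alone. A gene with no probe well above background on any array of a side has only a bound. This sets the other side's mean on the brightest probe against the lowest signal well above background on each array, or the probe's own where higher. Named genes are the 12 with the largest difference each way among those measured on all 16 arrays, the 12 largest bounds each way, the 3 largest of each list each way, the 4 largest each way between temperatures and between cultures, and 12 fixed markers. Genes that were not kept, further list members and genes with opposite signs on the perturbed arrays were named after their values were seen. Members and gene lists were chosen with earlier results of these data known. Alternatives tried were background correction (normexp with offset 50, on the median signal, as no mean signal column was used), quantile normalization, median centring, the percentile over probes above background on all arrays, the filter, probe averaging, all 32 arrays in one fit, slide, day and replicate blocks, outlier spots kept and leaving out arrays. A few genes of the lists are not reported here.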

Additional observations from a re-analysis of the deposited data

Results flagged for a closer look

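A single array stood apart from the other 3 of its group, by the share of the group's range taken up by the gap to the nearest array, for 58 of 1001 combinations of a reported gene and a control group (5.8%, where chance gives about 5%). The critical share for 4 arrays is 0.829. In the room-temperature mouse controls, array 1 stood above the others for Hoxa5 (0.885), Nqo1 (0.886) and Pi16 (0.841). Array 1 stood below the others for Cd34 (0.976), Hoxb4 (0.845), Hoxb7 (0.835) and S100a9 (0.95). Array 2 stood above the others for Fads2 (0.924), Hoxc10 (0.933), Ncam1 (0.95) and Timp1 (0.905). Array 2 stood below the others for Cpt2 (0.853), Ereg (0.846) and Ptprb (0.829). Array 3 stood above the others for Cs (0.846) and Myc (0.88). Array 3 stood below the others for Ndufa4l2 (0.876). Array 4 stood above the others for Rps3 (0.84). Array 4 stood below the others for Thrsp (0.832). In the cold mouse controls, array 1 stood below the others for Ushbp1 (0.847). Array 2 stood below the others for Thrsp (0.907). Array 3 stood above the others for Aspm (0.921), Ddx3y (0.838) and Fabp4 (0.846). Array 3 stood below the others for Aqp8 (0.907). Array 4 stood above the others for Kcnj8 (0.873). Array 4 stood below the others for Hoxc8 (0.866). In the Pparg culture controls, array 1 stood above the others for Adra1a (0.928). Array 1 stood below the others for Syt10 (0.917) and Ushbp1 (0.891). Array 2 stood above the others for Hbb-b2 (0.841). Array 3 stood above the others for Abcc9 (0.932), Acta1 (0.858), Flt1 (0.881), Isg15 (0.834), Top2a (0.866) and Tyrobp (0.867). Array 3 stood below the others for Shcbp1 (0.869). Array 4 stood above the others for Mapt (0.844). Array 4 stood below the others for Hoxa3 (0.909). In the Gyk culture controls, array 1 stood above the others for Hoxb7 (0.894) and Pparg (0.888). Array 2 stood above the others for Ctla2a (0.877). Array 2 stood below the others for Cox5b (0.849), Ddx3y (0.856), Hoxc4 (0.882), Prdm16 (0.938), Sc5d (0.837) and Tomm22 (0.872). Array 3 stood above the others for Abcc9 (0.842), Cd2 (0.978), Dbt (0.936), H2-DMb1 (0.86), Mcpt4 (0.937) and Tie1 (0.979). Array 3 stood below the others for Rora (0.904). Array 4 stood above the others for Kcnj8 (0.837) and Pdk4 (0.853).

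The mouse groups lay on opposite sides of both culture groups for 383 genes, and for all 383 the difference between cold and room temperature was itself called by limma. The difference between the mouse minus culture contrast of the control arrays and that of the knockout and knockdown arrays was called for 3813 genes. For Mb this difference was -6.44 on the log2 scale, for Anxa8 -6.23, for Cyp2f2 -5.52, for Ptgs1 -4.44, for Clu -3.38, for Pparg -3.16, for Lcn2 -3.13 and for Traf4 2.46. These genes were chosen after their values were seen.

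Among probes without a gene name, which entered no comparison, 83 were well above background on all 8 mouse arrays and no culture array. For 50 the reverse held.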

How the results depend on the processing

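Requiring an adjusted p under 0.01 and a 2-fold difference in each comparison left 3258 genes, 1791 higher and 1467 lower in mice. On the mean of mouse against culture, 4559 genes were called with the scan day as a random block (6024 at an unadjusted p under 0.05) and 2443 with group means as samples. Normexp background correction gave 1873 genes higher in mice and 3849 called between the cultures. Median centring gave 1527 higher and 5056 lower, and turned Ccng1 to -0.15 (limma adjusted p = 0.18) and Sod2 to -0.16 (adjusted p = 0.143). Without the filter 4503 genes were higher and 2875 lower of 20659 tested, and the median difference was 0.506 against 0.055 with it. Among genes well above background on all 16 arrays 1675 were higher and 2315 lower of 10206 tested. The causes of these shifts were not tested. Of the checks of counts over all genes, 320 stayed within 1.5 times. Leaving out single arrays gave 5553 to 5696 genes in all 4 comparisons, 2706 to 2853 higher and 2808 to 2909 lower. The mean contrast ranged from 11135 to 11423, and the contrasts of room-temperature mice from 10794 to 11275 against Pparg and 10668 to 11145 against Gyk cultures. Those of cold mice ranged from 9237 to 9688 and 9607 to 9923, cold against room temperature from 8671 to 9261, the cultures from 4800 to 5908 and the perturbed arrays from 10585 to 11164. Replicate numbers do not pair the samples (residual correlations of -0.107 to 0.055), and with the replicate number as a block 5710 genes were kept, 5643 of them shared. The slide as a random block kept 5163. Probes near background limit what can be said of dim genes, for which only bounds are given.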
